A study of Mus musculus with 8 samples.

Results

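Knockdown of Tip60 was compared with a control knockdown in mouse embryonic stem cells (ESCs) on 4 of the 8 arrays of the series, the 2 titled Tip60 KD and the 2 titled EGFP KD, which were chosen by these titles alone. The cells were E14 ESCs, grown without feeders on gelatin in medium with leukaemia inhibitory factor, infected with lentivirus carrying a short hairpin RNA and collected 72 h later. Control KD cells carried a hairpin against EGFP, a jellyfish protein that the cells do not make, and Tip60 KD cells carried a hairpin against Tip60. Cells with a hairpin against Hdac6 (Hdac6 KD) and cells with hairpins against both genes (double KD) make up the other 4 arrays, and they were used here to estimate the spread and as a second setting for the knockdown of Tip60. All groups therefore share infection with a hairpin vector, and 1 hairpin served for each gene, so that other targets of the hairpin and loss of Tip60 cannot be told apart.

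Tip60, encoded by Kat5, is a lysine acetyltransferase of the MYST family. It works within the Tip60-p400 complex, which acetylates histones H4 and H2A and, through the p400 ATPase, places the histone variant H2A.Z in nucleosomes. The complex is recruited to promoters by sequence-specific factors such as Myc and by methylated histone H3, takes part in the response to DNA breaks and in p53-dependent transcription, and in ESCs is known for keeping differentiation genes low while the cells self-renew.

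The targeted gene served as a check of the labels. The brighter of the Kat5 probes read 1.34 and 1.37 on the control KD arrays and 0.00 and 0.01 on the Tip60 KD arrays, as log2 signal relative to the 75th percentile of each array. Kat5 was thus lower by 1.35 on the log2 scale (SE 0.11, limma with Benjamini-Hochberg adjustment over all genes, adjusted p = 0.0011), at 39.2% of the control level. The other Kat5 probe lies in coding sequence, since its 60 bases read as an open frame that ends in a stop codon, and it is shown with this stop in capitals because it reports the mRNA that the hairpin was meant to remove. It is on the minus strand at chr19:5603418-5603477 in the mm9 build.
Kat5 probe: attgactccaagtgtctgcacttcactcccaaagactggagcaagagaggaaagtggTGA
This second probe read 0.64 and 0.65 in control KD against -0.91 and -0.86 in Tip60 KD, a difference of -1.53. Hdac6, which no hairpin in these cells targeted, read 2.21 and 2.18 in control KD and 1.74 and 1.77 in Tip60 KD, and fell by 0.44 (SE 0.07, adjusted p = 0.0062).

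Each slide carried 1 array of every group, replicates A on slide 1 and replicates B on slide 2, and a group lay at the same position on both slides, so that position on the slide and group cannot be told apart. Replicates of a group correlated at r = 0.986 to 0.989 over genes. Between 50.9% and 94.4% of the spots were well above background, and the background that the scanner software subtracted was higher on the control KD arrays (61.0 and 114.3 units, against 37.2 and 89.0 for Tip60 KD on slides 1 and 2), which matters most for dim genes; its part in the results below was not tested beyond the values given there. ESC identity markers were present throughout: 9 of 10 were measured, with a summed log2 level of 8.36 on both control arrays and 8.38 and 8.43 on the Tip60 KD arrays. Of 16 fibroblast genes, 6 were measured, with a summed log2 level of 1.63 and 1.45 in control KD and 1.93 and 1.74 in Tip60 KD. In Tip60 KD 2 of the 6 were called higher and 0 lower, beside 39.7% of all genes called in either direction. Col1a1 rose by 0.98, from -2.24 and -2.60 to -1.30 and -1.60, and Lum was at the floor on all 4 arrays.

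Depletion of Tip60 moved a large share of the transcriptome by small steps. Of 18112 genes tested, 7199 (39.7%) changed at an adjusted p under 0.1 in limma, 3569 of them (19.7%) higher and 3630 (20.0%) lower in Tip60 KD. Changes of at least 2-fold were found in 902 genes (4.98%), with 480 higher (2.65%) and 422 lower (2.33%). By size, 4 genes changed 8-fold or more, 39 between 4- and 8-fold, 859 between 2- and 4-fold, 2572 between 1.5- and 2-fold and 3725 by less than 1.5-fold. Of the 4 genes in the first band 2 were higher and 2 lower, in the 4- to 8-fold band 30 of 39 were higher, and the bands under 4-fold were close to even. Because letter A marks slide 1 and letter B slide 2, arrays of 1 letter were also compared within their slide. With the replicate letter as a block, 11019 genes (60.8%) passed the same threshold, 6000 higher and 5019 lower, and these included all 7199. The Tip60 KD minus control KD difference on slide 1 and that on slide 2 correlated at r = 0.823 over 17962 genes, which are not independent replicates. Of these genes, 79.1% moved the same way on both slides. Among the 7199 called genes 7149 did, a share that is largely built in, because the calls rest on the same 2 differences.

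**Figure D1:**
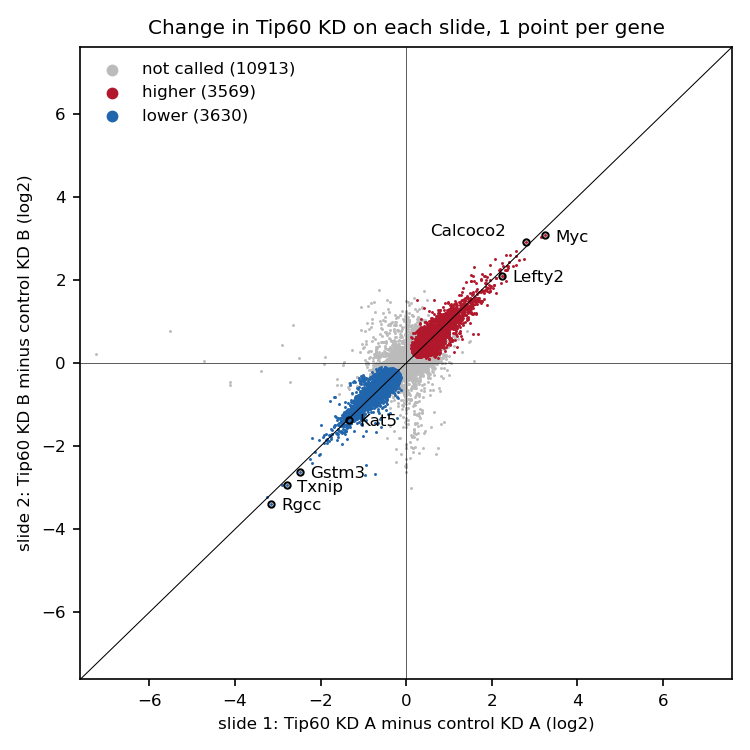
Difference between Tip60 KD and control KD (log2) within slide 1 (replicates A, horizontal axis) and within slide 2 (replicates B, vertical axis), 1 point per gene, with the diagonal drawn for equal differences. Genes called higher (3569, red) and lower (3630, blue) lie along the diagonal, with Myc and Calcoco2 at one end and Rgcc, Txnip and Gstm3 at the other, while 10913 genes in grey were not called.

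The direction of change depended on how bright a gene was. When genes were put into 4 equal groups by mean signal over the 8 arrays, 522 of the dimmest were called higher and 259 lower, with a median change of 0.13 on the log2 scale. The brightest group held 941 higher and 1348 lower, with a median of -0.08. Thus low genes rose more often and abundant genes fell more often, and the share called was 17.2% in the dimmest and 50.6% in the brightest group. A gene at the floor in control KD can only be called higher. Control KD arrays had fewer spots well above background (72.5% and 50.9%, against 94.4% and 62.9% for Tip60 KD). How far this shapes the counts of dim genes was not tested. When the same background was subtracted on every array, 6503 genes were called, 3153 higher and 3350 lower, not split by brightness.

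**Figure D2:**
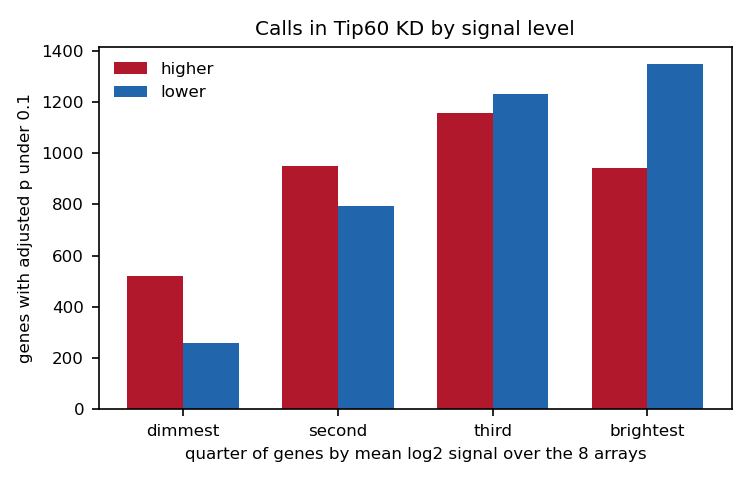
Number of genes called higher (red) and lower (blue) in Tip60 KD, for 4 equal groups of the tested genes ordered by their mean log2 signal over the 8 arrays. Higher genes outnumber lower ones in the dimmest group (522 against 259) and the reverse holds in the brightest (941 against 1348).

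Myc, the transcription factor of growth and proliferation that helps ESCs self-renew, rose more than any other gene measured above the floor. It read 0.34 and 0.26 in control KD and 3.57 and 3.33 in Tip60 KD. The increase was 3.15 (SE 0.14, adjusted p = 0.00051), or 8.89-fold, and the groups were far apart on both slides. Its partner genes did not move alike: of 11 genes of the Myc, Max and Mxd network, Mxd4 (0.60) and Mlx (0.59) rose with Myc, Mlxip fell by 0.67 (0.03 on its other probe), and Mycn was at -0.17, not called.

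The next increases fell into several functions. Calcoco2 (Ndp52), a receptor that brings bacteria and damaged organelles to autophagy, went from -0.75 and -0.82 to 2.05 and 2.10, an increase of 7.26-fold. Foxd3, a forkhead factor of the pluripotent epiblast and neural crest, went from -0.54 and -0.87 to 1.79 and 1.72. Epop, a partner of Polycomb repressive complex 2 in ESCs, was already bright, at 2.79 and 2.75, and reached 5.18 and 5.19, which is 5.33-fold. Spic, an Ets family factor best known from iron-recycling macrophages, was near the floor in control KD, at -2.32 and -2.28, and stood at 0.04 and 0.07 in Tip60 KD. Id3, an inhibitor of helix-loop-helix factors induced by BMP signals, went from -2.38 and -2.01 to -0.06 and -0.05. Setd1b, a histone H3 lysine 4 methyltransferase, rose by 1.91.

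Among the other large increases, Tppp3, a tubulin polymerisation promoting protein, went from -1.10 and -1.20 to 1.32 and 1.39, and Tubb3, the tubulin that marks young neurons, from -0.42 and -0.74 to 1.35 and 1.41. The neurofilament subunits moved together. Nefh rose by 2.29 and Nefl by 2.16, the latter from -1.79 and -2.17 to 0.17 and 0.18. Among secreted factors, the Wnt antagonists Sfrp1 (2.20) and Sfrp5 (1.98, with both control values at the floor) rose, and so did Lefty2, an inhibitor of Nodal, from 1.43 and 1.54 to 3.66 and 3.64, or 4.49-fold. Notch4 (2.32) and Robo4 (2.19), receptors known from blood vessels, were among the 25 largest increases. Also there were Dusp27 (2.46), Cdhr1 (2.29), Slc11a1 (2.27), Enox1 (2.08) and the predicted genes Gm4303 (2.63) and Gm4312 (2.30), whose probes lie next to each other on chromosome 10 (whether they report separate transcripts was not tested).

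**Figure D3:**
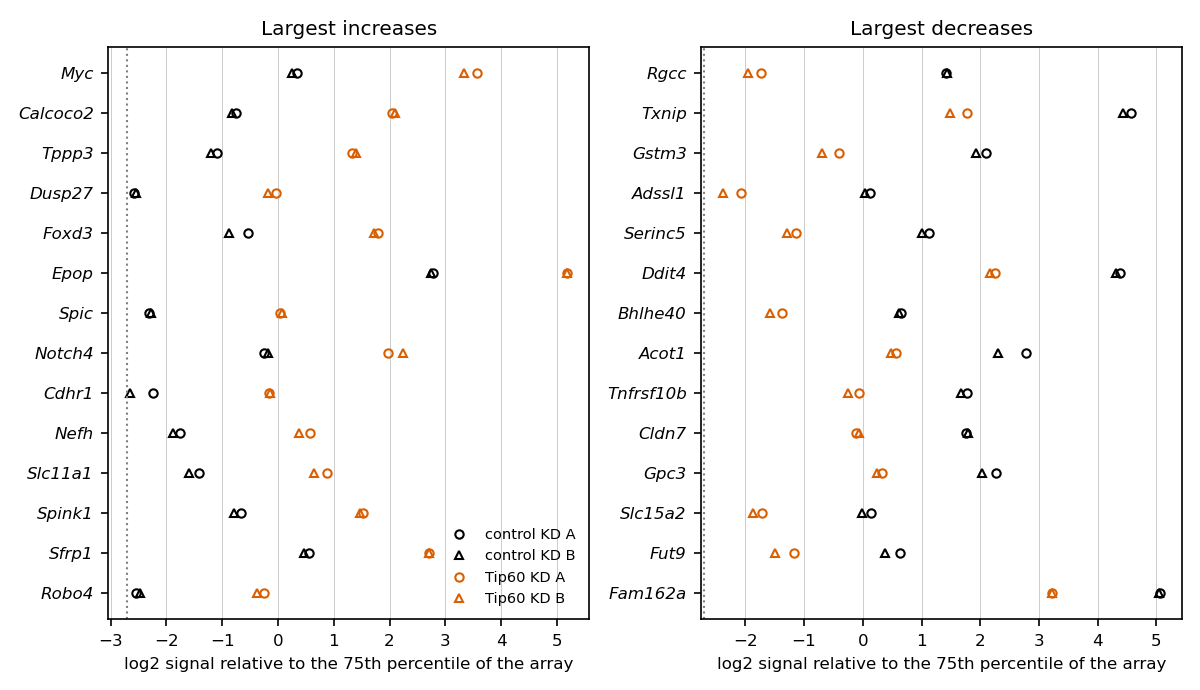
Log2 signal relative to the 75th percentile of the array for the 14 largest increases (left) and the 14 largest decreases (right) among the named genes with a symbol, with control KD in black, Tip60 KD in orange, circles for replicate A and triangles for replicate B. Myc runs from 0.34 and 0.26 to 3.57 and 3.33 and Rgcc from 1.42 and 1.43 to -1.73 and -1.96; the genes were chosen for a large change in 1 direction on both slides, and the dotted line is the floor.

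Rgcc, a regulator of cell cycle and complement responses, showed the largest decrease. It read 1.42 and 1.43 in control KD and -1.73 and -1.96 in Tip60 KD, a fall to 10.4% of control (-3.27, SE 0.10, adjusted p = 0.00024). Txnip, the thioredoxin-binding arrestin that limits glucose uptake, was among the bright genes and went from 4.57 and 4.43 to 1.78 and 1.49. This is 13.7% of control, and its other probe gave -1.86 against -2.87. Gstm3, a glutathione transferase, went from 2.09 and 1.93 to -0.40 and -0.70, or 17.0% of control, with -0.76 on its other probe. Adssl1, an enzyme of AMP synthesis, fell by 2.31 and Serinc5, a membrane protein that restricts retroviruses, by 2.28.

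Further down the ranking, Ddit4 (Redd1), which holds back mTOR under hypoxia and other stress, went from 4.38 and 4.32 to 2.24 and 2.17, 22.7% of control. Bhlhe40, a repressor linked to hypoxia and the clock, fell by 2.11. Tnfrsf10b, a death receptor under p53 control, fell by 1.89, and the p53 target Ccng1 went from 3.68 and 3.67 to 1.80 and 1.97. Cldn7, a tight junction protein, fell by 1.87, Klf10, a TGF-beta induced factor, by 1.73, and Dnmt3a, a de novo DNA methyltransferase, by 1.73 (SE 0.23), from -0.21 and -0.39 to -1.72 and -2.35. Also in this range were Acot1 (-2.01), Gpc3 (-1.86), Slc15a2 (-1.85), Fam162a (-1.83), Rhou (-1.80), Hpn (-1.78) and Mdc1 (-1.76), a scaffold of the DNA break response.

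Some genes with large differences fall outside that ranking and were picked out after their values were seen. Ccnd2, cyclin D2, was at the floor of -2.71 on both control arrays and at 0.43 and 0.32 in Tip60 KD, an increase of 3.08 that counts the control at the floor. Gap43 (2.63), Pou4f2 (2.55) and Ltb (2.33) rose in the same manner from at or near the floor, and Gm5091 fell by 3.24 to the floor on both Tip60 KD arrays. Conversely, Srsf7, Fam25c, 4933434E20Rik and Timm9 differed by 4-fold or more in their means but were not called, because the Tip60 KD array of slide 1 was at the floor where that of slide 2 was not. For Srsf7, a splicing factor, the values were 4.54 and 4.42 in control KD and -2.71 and 4.65 in Tip60 KD (adjusted p = 0.29). A further 9 called genes were not well above background on either control array, which leaves an increase as the only direction that could be called. Counted from the floor, the cartilage protein gene Ucma was 0.72 higher and the homeobox gene Tlx2 0.68 higher, and their true changes are not known.

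Genes were next described by 62 lists of known function, each by the number called in either direction and by its median beside those of all tested genes (median 0.06, 39.7% called). Germ cell genes had the lowest median. Of 19 tested, 11 fell and 1 rose, with a median of -0.77 (-0.43 on slide 1 and -0.82 on slide 2). Sycp3, of the axis of meiotic chromosomes, went from 2.00 and 1.79 to 0.64 and 0.26, and Dppa3 (Stella), of primordial germ cells and oocytes, from 1.08 and 0.84 to -0.37 and -0.62. Also lower were the X-linked homeobox genes Rhox6 (-1.55) and Rhox9 (-1.43), the piRNA pathway genes Tdrd12 (-1.18), Mael (-1.12) and Piwil2 (-0.92), the meiotic gene Hormad1 (-1.06) and the testis TFIID subunit gene Taf7l (-0.83). Dazl, an RNA-binding protein of germ cells, was the exception and rose by 0.61.

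Targets of Atf4, the factor of the amino acid stress response, fell in 17 of 26 cases and rose in 0, with a median of -0.62 on the list. Chac1, which degrades glutathione, went from 2.43 and 2.51 to 1.07 and 1.01. Trib3, a pseudokinase that feeds back on Atf4, went from 2.71 and 2.57 to 1.47 and 1.17. The serine synthesis gene Psat1 fell by 1.20, the factor Atf5 by 1.12, Atf4 itself by 0.71 (-0.05 on its other probe) and asparagine synthetase, Asns, by 0.62. Among 27 targets of p53, 17 fell and 2 rose, with a median of -0.60. Besides Tnfrsf10b and Ccng1, these were the kinase gene Plk2 (-1.50), the RNA-binding Zmat3 (-1.36), the pro-apoptotic Bbc3 (Puma, -1.36), Mdm2 (-0.93), whose product degrades p53, and the Cdk inhibitor Cdkn1a (-0.33). Apoptosis genes of the Bcl2 family and caspases had 11 of 25 lower and 1 higher, with Apaf1 at -0.92.

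Of 18 hypoxia response genes, 10 fell and 1 rose (median -0.49). Vegfa, the vascular growth factor, went from 2.11 and 2.01 to 0.71 and 0.38, Bnip3, a mitophagy receptor, from 4.91 and 5.02 to 3.70 and 3.68, and the demethylase gene Kdm3a rose by 0.93. The other Vegfa probe gave -0.91. Glycolysis and pyruvate genes, a list that also counts the arrestin genes Txnip and Arrdc4, had 15 of 28 lower and 3 higher (median -0.37). The higher ones were Pdha1 (0.43), Pkm (0.34) and Pfkl (0.31). Ldhb, lactate dehydrogenase B, went from 6.20 and 5.99 to 4.71 and 4.54, and Arrdc4 (-1.46), Aldoc (-1.34), Pfkfb3 (-1.16), Pgk1 (-0.50) and Ldha (-0.43) were lower too, with -2.62 on the other Arrdc4 probe and up to 0.17 on other Ldha probes. Oxidative phosphorylation subunits shifted less, with 18 of 37 lower, 2 higher and a median of -0.29. Cox5b fell by 0.80 and Cox6c by 0.68, while Atp5g1 rose by 1.80 on its brighter probe and its other probe gave -0.65.

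Cytosolic ribosomal protein genes had 21 of 38 lower and 1 higher (median -0.33, or -0.12 with quantile normalisation), with Rpl32 at -0.81, Rpl14 at -0.60 and Rps24 at -0.59, against 0.52 for Rps19. Ribosome biogenesis factors, many of which are known Myc targets, had 15 of 30 higher and 3 lower (median 0.29), with Noc4l (0.96), Nop16 (0.92) and the polymerase I subunit gene Polr1b (0.91) among the higher. Pes1 rose by 1.39 on its brighter probe and gave -0.02 on the other. Translation factors moved both ways, with 8 of 25 higher and 6 lower. Genes of the unfolded protein response had 9 of 21 higher and 3 lower (median 0.25), with Pdia3, a disulphide isomerase, at 1.10 and Herpud1 at -1.05.

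Cell cycle genes fell more often than they rose. Genes of G2 and mitosis had 16 of 35 lower and 2 higher (median -0.24), with securin, Pttg1, at -1.12 and the motor gene Kif11 at -0.73. Genes of G1 and S had 11 of 27 lower and 6 higher, and the higher ones included the cyclins Ccnd2, Ccnd3 (0.58), Ccne1 (0.66) and Ccnd1 (0.44). The inhibitor Cdkn1b fell by 0.96 and Rb1 by 0.94, whereas the imprinted inhibitor Cdkn1c rose by 1.15.

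Junction genes moved both ways. Of 27 tested, 12 fell and 5 rose. Cldn7, the gap junction gene Gja1 (-1.35), Ocln (-1.28, at the floor on the Tip60 KD array of slide 1) and Cldn6 (-1.27) fell, and N-cadherin, Cdh2, rose from -1.88 and -1.50 to -0.39 and -0.55, with Jam2 at 1.04 (0.46 to 2.15 over its 3 probes). Collagens, laminins and integrins had 9 of 28 higher and 6 lower (median 0.19, or 0.12 without control KD replicate B). The basement membrane collagen genes Col4a1, from -1.12 and -1.07 to 0.57 and 0.49, and Col4a2 (1.43, with both control values at the floor) rose with the fibronectin receptor subunit gene Itga5 (1.58), and Lamb1 fell by 0.82. Cytoskeletal lists had positive medians. Tubulin and microtubule genes had 14 of 25 higher and 3 lower (median 0.43), Stmn3 (1.61, with 1 control value at the floor), Tbcb (0.97) and Tuba1a (0.85) among them. Intermediate filament genes had 7 of 15 higher and 4 lower (median 0.42, or 0.16 without control KD replicate A), with peripherin, Prph, at 1.38, Krt8 at 1.28, vimentin, Vim, at 1.06 and Krt19 at -0.96.

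Signals of the early embryo and pluripotency factors were shifted upward in part. In the Nodal, Lefty and Activin list, 8 of 15 rose and 5 fell (median 0.55, but 0.03 over genes above the floor on all arrays). Nodal itself, the TGF-beta ligand of the epiblast, went from 2.13 and 2.11 to 3.62 and 3.46, and its inhibitors Lefty2 and Lefty1 (0.58), the co-ligand Gdf3 (0.75, but 0.04 on its other probe) and the activin subunit gene Inhbb (1.46) rose with it. The corepressor gene Skil fell by 1.08 on its brighter probe, and its other probe gave 0.43. BMP and Id genes had 6 of 12 higher and 1 lower (median 0.52), with Id1 (0.79, from the floor), Id4 (0.65) and the ligand Bmp4 (0.53) higher and the receptor gene Bmpr1a at -0.97. Of 15 core pluripotency factors, 7 rose and 2 fell (median 0.27, or 0.17 with the mean of each gene's probes). Pou5f1 (Oct4) rose from 3.16 and 3.13 to 4.17 and 4.13 (2.01-fold), and Dppa2 (0.92) and L1td1 (0.91) rose. Sox2 was at -0.24 and was not called, and neither was Nanog, at -0.07, for which the Tip60 KD spot of slide 1 was marked as an outlier and left out.

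Naive pluripotency factors had 8 of 17 higher and 2 lower. Gbx2 (1.53) and Prdm14 (1.01) rose most, and Dppa3, also on the germ cell list, fell most (-1.45). In the formative and primed epiblast list 6 of 12 rose, Foxd3 and Sall2 (1.48, with both control values at the floor) among them, and Dnmt3a fell. Of the 7 tested genes of the 2-cell stage, 3 rose and 0 fell, namely Zscan4c, from -0.39 and -0.37 to 1.51 and 1.36, Zscan4f (1.56) and Gm8300 (1.36). Ectoderm and neural genes had 5 of 12 higher and 0 lower (median 0.45, or 0.23 without control KD replicate A), and mesoderm genes 3 of 8 higher and 0 lower, among them Snai1 (1.02, with both control values at the floor) and Eomes (0.84, or 0.21 on its other probe).

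Within the complex itself, 5 of 19 tested Tip60-p400 subunit genes rose and 5 fell. Kat5 fell most, followed by Actb (-0.59), Mbtd1 (-0.51), Brd8 (-0.44) and Morf4l1 (-0.40), although other probes of Mbtd1 and Brd8 gave 0.01. Yeats4 (1.04), Actl6a (0.94), Dmap1 (0.58), Mrgbp (0.56) and Epc1 (0.50) rose, and Ep400, the gene of p400, was at -0.13 and was not called. The panel that the study itself measured by RT-qPCR was chosen on these arrays and is not independent evidence of a direction. It had 8 of 14 genes higher and 5 lower, with Gpsm2 at -1.08 and Lamp2 at -1.53 on 1 probe and -0.36 on the other. Akr1b8 rose by 0.37 and Gata4 was at -0.35, not called.

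**Figure D4:**
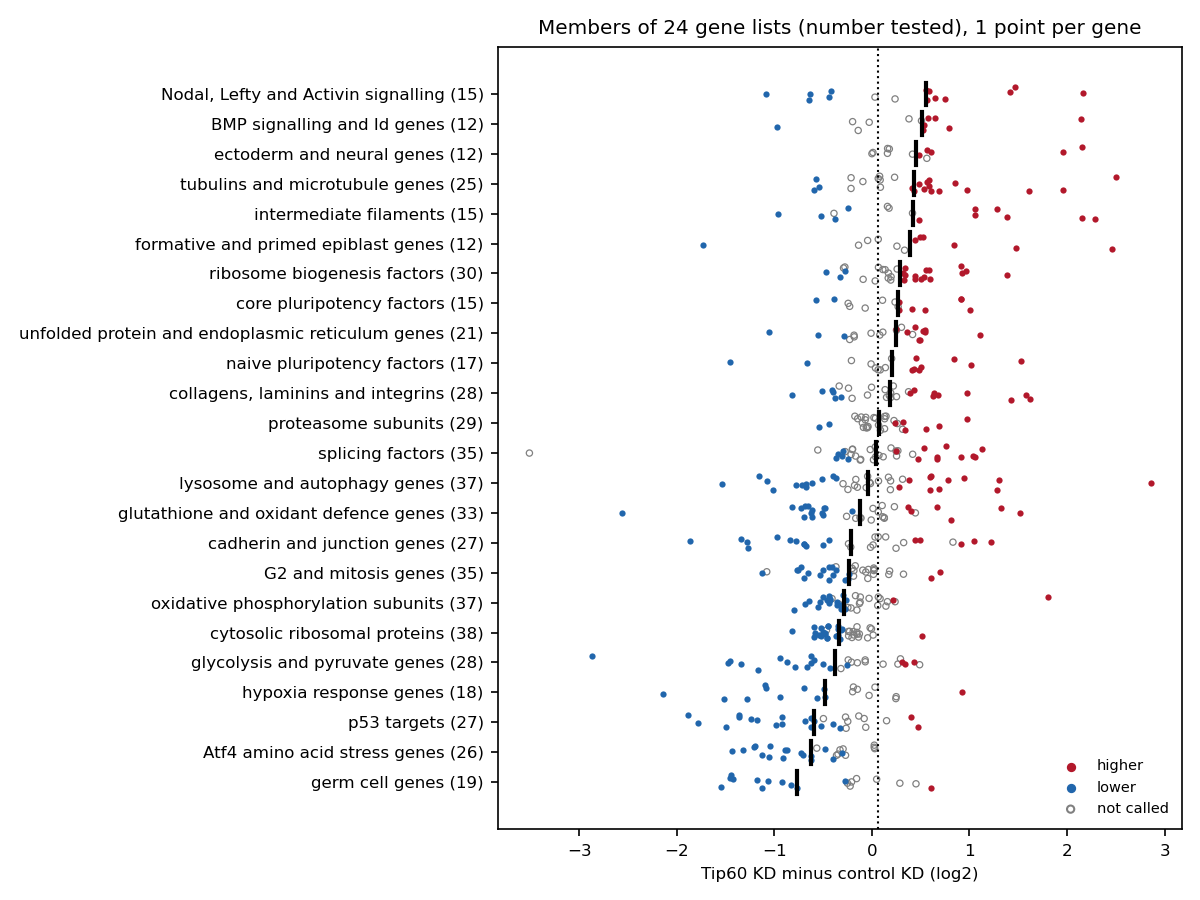
Difference between Tip60 KD and control KD (log2) for every tested member of 24 gene lists, 1 point per gene, red if called higher, blue if called lower and open if not called. Black bars mark list medians, from -0.77 for germ cell genes to 0.55 for Nodal, Lefty and Activin genes, and the dotted line marks the median of all tested genes, 0.06.

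Promoters were set beside the changes for genes with a RefSeq window (build GRCm38.p6, from 250 bases before to 50 after the start, the first window listed per gene), 11419 of the 18112 tested genes. Windows of genes that fell were richer in CpG: 74.2% held at least 15 CpG, against 68.3% of genes that rose and 62.9% of all. The GGGCGG motif, the core of Sp1 sites, was on either strand in 70.0% of windows of genes that fell, 61.0% of those that rose and 58.7% of all. At 2-fold or more the gap was wider, with 71.8% of lower and 53.7% of higher genes. CACGTG, the E-box read by Myc, Max and related factors, was in 9.77% of windows of higher genes, 11.7% of lower genes and 9.57% of all, and CCAAT was in 39.7%, 40.5% and 39.1%. A match is a description of these letters and not of binding, and whether these shares follow from the signal level of the genes was not tested.

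Within the germ cell list, 10 of the 14 matched windows held CACGTG (71.4%), against 9.57% of all tested genes. Of these 10 genes, 4 fell and 0 rose (median -0.24), and of the 4 without it 2 fell and 1 rose. The other genes with it were not called and ran from -0.25 (Mov10l1) to 0.45 (Slc25a31). Over all genes with a window, 290 of 1093 with CACGTG fell and 229 rose. Without it 2179 of 10326 fell and 2116 rose. Whether the motif goes with the fall was not tested. The E-box stretches are shown only for the 4 that fell, so they were picked by that fall, and the motif stands in capitals. The positions are GRCm38.p6, on the plus strand for Sycp3 (chr10:88459506-88459565) and Hormad1 (chr3:95559611-95559670) and on the minus strand for Mael (chr1:166238935-166238994) and Taf7l (chrX:134476507-134476566).
Sycp3: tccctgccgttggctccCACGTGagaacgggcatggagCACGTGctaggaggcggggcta
Hormad1: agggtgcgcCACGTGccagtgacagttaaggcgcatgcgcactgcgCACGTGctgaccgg
Mael: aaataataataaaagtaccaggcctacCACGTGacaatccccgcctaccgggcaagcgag
Taf7l: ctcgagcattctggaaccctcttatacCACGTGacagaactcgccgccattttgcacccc
In the Atf4 list, the element TGATGNAA, which Atf4 and C/EBP factors bind, was searched after the values were seen. It was on either strand in 6 of 22 windows (27.3%), against 2.64% of all tested genes. Of the genes with it, Chac1, Trib3, Asns and Gars fell, and Aars (-0.36) and Atf3 (0.02) were not called. Genes of the list without it were also of both kinds. Among them Vldlr (-1.21), Psat1 (-1.20) and Atf5 (-1.12) fell, and Ddit3 (-0.57) and Shmt2 (0.03) were not called. Whether the element goes with the fall was not tested. Chac1 (plus strand, chr2:119351023-119351082) and Asns (minus strand, chr6:7693210-7693269) are shown with the element in capitals, in its reverse complement for Chac1.
Chac1: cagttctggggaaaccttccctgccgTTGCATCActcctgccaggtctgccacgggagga
Asns: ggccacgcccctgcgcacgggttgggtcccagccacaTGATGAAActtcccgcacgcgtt

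The knockdown of Tip60 was also made in cells with the Hdac6 hairpin. These cells are called Hdac6-depleted after that hairpin, and their Hdac6 level is not given here. Double KD against Hdac6 KD uses none of the arrays of the main comparison. On slide 2 the background subtracted was 41.4 units for double KD and 86.9 for Hdac6 KD, with 93.6% and 64.3% of spots well above background. On slide 1 the backgrounds were 39.4 and 37.7. What this adds to the changes of dim genes was not tested. In double KD against Hdac6 KD, Kat5 fell by 1.48. At the same threshold 1828 genes (10.1%) changed, 972 higher and 856 lower. Of the 480 genes at least 2-fold higher in Tip60 KD, 376 had the same sign in Hdac6-depleted cells and 209 were called, 204 of them higher. Of the 422 lower genes, 328 had the same sign and 132 were called, 117 of them lower. The sizes were smaller, with a median of 0.32 against 1.23 for the higher genes and of -0.26 against -1.22 for the lower ones. Some shrinkage is built into this comparison, because the genes were picked for a large change in control cells. Limma on these 4 arrays alone called 0 genes, with 3129 at an unadjusted p under 0.05, and leaving out 1 array at a time gave 156 to 1287 calls, so that the count of 1828 rests on the spread pooled over all groups.

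The difference between the settings was also tested, as Tip60 KD minus control KD less double KD minus Hdac6 KD. This contrast was added after the data were seen. It holds the same Tip60 KD minus control KD difference by which the largest changes were picked. A high share of those genes passing is thus built in, and it is no separate evidence about them. In limma 3987 genes (22.0%) differed at an adjusted p under 0.1, with 1972 more positive and 2015 more negative in control cells, and 45 of the 49 named largest changes were among them. Spic was not: it rose by 2.35 in control cells and by 2.21 in Hdac6-depleted cells, a difference of 0.14 (adjusted p = 0.42). Zscan4c (1.81 and 1.69) and Slc11a1 (2.27 and 1.83) likewise did not pass, and Ccng1 fell by 1.79 and by 1.36. Myc rose by 1.12 in Hdac6-depleted cells, from 2.35 and 2.16 to 3.52 and 3.23, beside the 3.57 and 3.33 of Tip60 KD. Its starting levels in the 2 settings were further apart than the levels with Tip60 depleted.

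Several of the genes that fell most were also low in Hdac6 KD. In Hdac6 KD cells Rgcc read -2.05 and -2.15, and with both hairpins -1.67 and -1.75, so that the knockdown of Tip60 raised it by 0.39 (adjusted p = 0.092) in place of the fall of 3.27 in control cells. Txnip read 2.12 and 1.88 in Hdac6 KD, Ddit4 2.74 and 2.80 and Chac1 1.17 and 1.21, all below control KD on both slides. Their changes in Hdac6-depleted cells were 0.33, -0.10 and 0.50, of which that of Chac1 passed. Lefty2 behaved in the same manner from the other side, at 3.86 and 4.04 in Hdac6 KD with a change of 0.04, for which double KD has only replicate B after an outlier spot was left out. Dusp27 rose by 2.46 in control cells and fell by 0.48 in Hdac6-depleted cells.

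**Figure D5:**
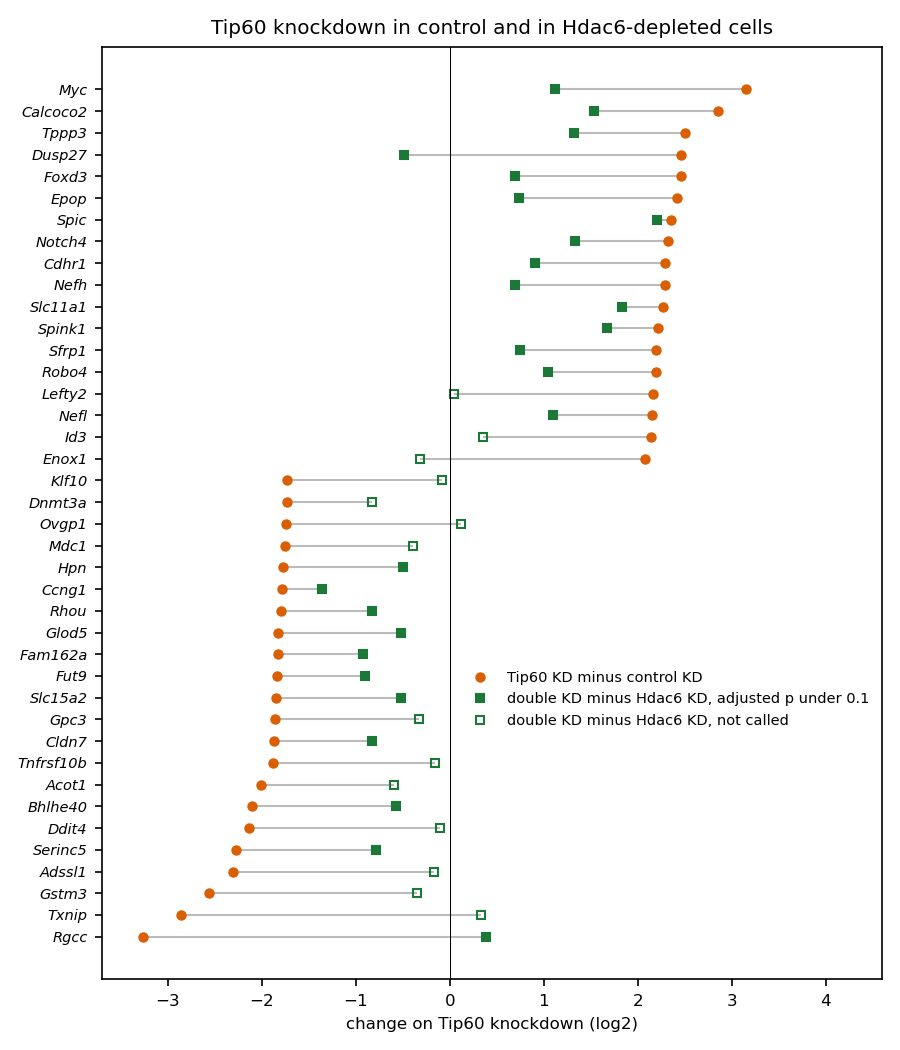
Change on Tip60 knockdown (log2) in control cells (orange circles, Tip60 KD minus control KD) and in Hdac6-depleted cells (green squares, double KD minus Hdac6 KD, filled if called), for the 40 named genes with a symbol among the 25 largest changes each way. Spic and Ccng1 keep most of their change, whereas Rgcc, Txnip, Lefty2 and Dusp27 lie near 0 or on the other side of it.

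In Hdac6-depleted cells the medians were 0.03 for germ cell genes, -0.05 for Atf4 targets, -0.12 for p53 targets, 0.00 for hypoxia genes and 0.01 for Nodal, Lefty and Activin genes, beside 0.00 for all genes. Members called in either direction were 5 of 19, 5 of 26, 4 of 27, 3 of 18 and 4 of 15 in that order, beside 10.1% of all genes. Among the lists that kept a positive median were collagens, laminins and integrins (0.28, with 9 of 28 higher and 1 lower) and ectoderm and neural genes (0.27, with 4 of 12 higher and 1 lower). Unfolded protein genes (0.30, with 4 of 21 higher and 1 lower) and fibroblast genes (0.29, with 2 of 6 higher and 0 lower) kept one too. Tip60 KD set directly against Hdac6 KD, a comparison that shares the Tip60 KD arrays with the main one, called 4249 genes (23.5%). The difference from Hdac6 KD was 1.19 for Myc, 0.26 for Rgcc (adjusted p = 0.15) and -0.37 for Txnip (adjusted p = 0.19). List medians there were 0.05 for germ cell genes, -0.14 for Atf4 targets, -0.30 for p53 targets and -0.29 for Nodal, Lefty and Activin genes.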

How the data were processed

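RNA of 8 one-colour Agilent 4x44K mouse arrays (2 biological replicates of 4 groups) was analysed. Per the file headers, the authors' scanner files came from Agilent Feature Extraction 10.7.1.1, and the deposited spot intensity used here, the processed signal, is already background-subtracted. The deposited series table, in log2 and normalised by the authors, ranked the spots of each array as their median signals did (Spearman's rho 1). It served as an alternative. Signals were divided by the 75th percentile of each array, floored at 0.153 of it (log2 -2.71, 8.86% of values) and logged. Outlier spots were left out. Probes above floor and background on at least 2 arrays were kept, the brightest per gene. Of 30392 genes, 18112 were kept, and 27324 of 39429 probes matched a RefSeq symbol. Limma 3.58.1 in R 4.3.3 was fitted on all 8 arrays without block, with Benjamini-Hochberg adjustment, 4 residual degrees of freedom and a threshold of 0.1, after tests on simulated data. The p-values measure the spread between the 2 replicates of a group, pooled over the 4 groups and drawn by limma toward that of other genes. The replicate letters pair arrays, since letter and slide coincide and differences between A and B correlated at 0.651 to 0.799 in the 6 pairs of groups; the fit with this block is given beside the results. Named genes were Kat5, Hdac6, the 25 largest changes each way that were called, above the floor on all 4 arrays and alike on both slides, up to 8 called genes each way not well above background in 1 group, up to 5 called genes per list, and the RT-qPCR panel. Some genes that this rule takes are not reported here, although the counts over all genes tested and over lists include them. The groups, the 62 gene lists and the tests were chosen with earlier results of these data known. The number of arrays limits the precision.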

Additional observations from a re-analysis of the deposited data

Results flagged for a closer look

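Changes on Tip60 knockdown that differed between control and Hdac6-depleted cells were looked at again, since every such difference was tested in limma as the change in control cells minus that in Hdac6-depleted cells. At an adjusted p under 0.1, 3987 genes differed. The named largest changes were picked on arrays that this contrast also uses, which favours large differences among them. Among the 49 named largest changes, the genes called in both settings with opposite signs were Rgcc, with a difference of -3.65 (-3.27 in control cells and 0.39 in Hdac6-depleted cells, adjusted p = 0.0029), an X-linked transcript without a gene name, with -3.54 (-2.92 and 0.63, adjusted p = 0.0032), and Dusp27, with 2.95 (2.46 and -0.48, adjusted p = 0.0029). In each of these genes the 2 arrays of every group lay closer to each other than to the control KD arrays, and the control KD arrays stood apart from those of the other 3 groups.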

How the results depend on the processing

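The letter that pairs arrays on a slide, used as a replicate block, raised the count of genes changed in Tip60 KD from 7199 to 11019 (10850 after a GC trend was also taken out), that for Tip60 KD against Hdac6 KD from 4249 to 7518 (7447) and that in Hdac6-depleted cells from 1828 to 5326 (5326), and it ended no call in Tip60 KD against control KD. At 2-fold or more these counts were 902, 337 and 144. With 1 array left out they were 5262 to 6899, 1961 to 3765 and 156 to 1287, the last between 156 and 364 without any Hdac6 KD or double KD array. With only the arrays compared, Tip60 KD against Hdac6 KD gave 2407 and Hdac6-depleted cells 0 (3129 at an unadjusted p under 0.05 in limma), and the latter gave 1051 from the series table and 950 at an adjusted p under 0.05. Kat5 stayed called and between -1.45 and -1.32 under every setting. The share of lower genes with CpG-rich promoters ran from 72.5% to 74.7%.

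Of 318 named genes called besides Kat5, 317 reversed under no alternative in which they were tested, and 257 were also never lost there. The exception was Phc1, at 0.55, which was -0.95 as a mean of its probes and -1.98 after quantile normalisation (not called in either). A gene that an alternative left out was not counted as lost. When genes at the floor on any array were dropped, 279 of the 318 were tested, and 0 of these reversed or were lost. The 257 can thus include genes that were not tested under every alternative. List medians of at least 0.20 in size kept their sign under every alternative with all arrays in, and with 1 array left out all but that of trophectoderm genes, which went from -0.25 to 0.03 without Tip60 KD replicate A. Called genes with several probes disagreed in direction in 554 of 1807 cases (39 of 207 at 2-fold or more). Signal over background limits the dim genes, whose counts in each direction depend on the floor.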

Other observations

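Autophagy and lysosome genes moved in both directions, with 11 of 37 higher and 12 lower in Tip60 KD and a median of -0.04 on the log2 scale. After Calcoco2, the highest were Tfeb (1.31, with 1 control value at the floor), the factor that drives lysosome genes, and the Atg8 family gene Gabarapl2 (1.28), while its relative Gabarapl1 fell by 1.16 and the lysosomal enzyme gene Neu1 by 1.01. Glutathione and oxidant defence genes had 14 of 33 lower and 6 higher, with Gstm2 (-0.81) and Gsr (-0.70) after Gstm3, and Gsta3 (1.51) and Gpx1 (1.32) higher. In Hdac6-depleted cells 10 of these 33 genes fell on Tip60 knockdown and 1 rose, beside 856 lower and 972 higher of 18112 genes tested (10.1% called).

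Trophectoderm genes, of the outer layer of the blastocyst, had 5 of 10 lower, Tfap2c (-1.38) and Ascl2 (-1.12) among them, and 3 higher, Tead4 (1.32, with both control values at the floor) and Krt8 among them. Retinoic acid genes had 5 of 15 lower, with Stra8, the retinoic acid target of meiosis, at -1.46, and 4 higher, with the receptors Rarg (0.91) and Rara (0.87, or 0.25 on its other probe). Among amino acid and solute carriers 10 of 21 fell, led by Slc38a4 (-1.38), and 5 rose. Of 33 Hox and other developmental regulators under Polycomb control, 14 were measured, of which 2 rose and 2 fell. Chaperone genes had 7 of 21 higher and 0 lower, and splicing factors 10 of 35 higher and 5 lower, beside 39.7% of all genes called in either direction.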
